A study of Rattus norvegicus with 9 samples.

Results

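Brains of rats that had a middle cerebral artery occlusion and received nicotinamide mononucleotide (NMN) were compared here with brains of sham-operated rats, gene by gene. Of the 12609 gene symbols in the table, 10118 reached 1 TPM (a length-normalised share of a library's transcripts) in at least 3 of the 6 libraries of these 2 groups, and these genes make up the comparison. The filter did not compare the groups, but a gene could pass it through 1 group alone. Genes such as Lcn2, Ccl2, H19, Msr1, Csf2rb and Ncf4 were below 1 TPM in every sham library and passed through the NMN-treated group. Siglec5 and Npas4 were below 1 TPM in every NMN-treated library and passed through the sham group. For such genes the filter itself made the groups lie apart. Where they are members of a list below, its counts and median include them. A further 2491 symbols did not reach it and are not described, apart from 1 gene named for the study's title.

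The study profiled rat brain RNA in 3 groups of 3 libraries, amplified by the Smart-Seq2 method. The Sham group had surgery without the occlusion and carries PBS as its treatment label. The IR+NMN group had the occlusion, abbreviated MCAO, and an injection of 100 mg/kg NMN dissolved in saline. The IR group had the occlusion with PBS; it entered the fit only to estimate the spread. Occlusion, NMN and vehicle all differ between Sham and IR+NMN, so their effects cannot be told apart in this comparison. Strain, sex, age, hemisphere, brain region, route and time after occlusion are not stated in the labels used here. Nor do the labels say that the libraries came from separate animals, so a p-value here reflects how much these libraries vary among themselves, which could be technical variation. Read depth is unknown, because the table gives TPM and no counts.

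Occlusion of the middle cerebral artery cuts the blood supply to the striatum and the lateral cortex, and reopening the vessel returns blood to tissue that is already injured. Microglia, the resident macrophages of the brain, then leave their surveying state, blood-borne phagocytes enter, and astrocytes become reactive and build up intermediate filaments. Cells under stress raise chaperones through heat shock factor and metallothioneins through the metal-responsive factor MTF-1. NMN is a precursor of the coenzyme NAD+, which sirtuins, PARPs and CD38 consume.

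Promoters of 4 of the stress genes are printed because these genes rose and their promoters match short patterns searched for heat shock factor or MTF-1. All are 300 bases from RefSeq (GRCr8), 250 before and 50 after the gene's start, written 5′ to 3′ on the gene's strand. Hspb1 (chr12:26432252-26432551, minus strand) and Hspb8 (chr12:45837058-45837357, plus strand) encode small heat shock proteins, and capitals mark the heat shock element cores GAANNTTC and TTCNNGAA. Mt1 (chr19:10832926-10833225, minus strand) and Mt2A (chr19:10838659-10838958, minus strand) encode metallothioneins. Capitals mark TGCNCNC on either strand, the pattern searched here for the metal response element core. This pattern is loose, as 49.6% of all promoters hold it, so a marked stretch need not be a metal response element.
Hspb1: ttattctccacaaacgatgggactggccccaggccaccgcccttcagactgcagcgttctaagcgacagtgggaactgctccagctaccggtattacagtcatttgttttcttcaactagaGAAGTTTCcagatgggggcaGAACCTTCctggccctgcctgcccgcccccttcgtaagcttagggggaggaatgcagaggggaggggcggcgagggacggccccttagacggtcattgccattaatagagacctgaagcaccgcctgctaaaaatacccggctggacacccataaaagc
Hspb8: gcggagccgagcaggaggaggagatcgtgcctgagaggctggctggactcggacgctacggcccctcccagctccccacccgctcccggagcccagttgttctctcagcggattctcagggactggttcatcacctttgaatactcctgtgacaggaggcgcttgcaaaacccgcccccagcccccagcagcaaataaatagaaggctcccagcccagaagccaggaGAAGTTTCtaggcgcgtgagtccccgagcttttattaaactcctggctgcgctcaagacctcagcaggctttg
Mt1: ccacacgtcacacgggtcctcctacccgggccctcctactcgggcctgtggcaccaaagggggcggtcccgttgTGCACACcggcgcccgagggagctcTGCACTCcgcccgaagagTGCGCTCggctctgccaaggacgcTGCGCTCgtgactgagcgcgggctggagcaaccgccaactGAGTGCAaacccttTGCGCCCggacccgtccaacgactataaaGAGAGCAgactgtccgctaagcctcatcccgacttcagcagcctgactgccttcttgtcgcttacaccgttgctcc
Mt2A: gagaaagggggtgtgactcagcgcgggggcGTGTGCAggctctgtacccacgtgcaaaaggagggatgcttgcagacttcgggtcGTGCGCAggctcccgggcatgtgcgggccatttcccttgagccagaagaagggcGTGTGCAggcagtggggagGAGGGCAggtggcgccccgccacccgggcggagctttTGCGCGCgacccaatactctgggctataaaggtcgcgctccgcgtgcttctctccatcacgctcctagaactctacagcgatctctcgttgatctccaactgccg

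Between Sham and IR+NMN, 1054 genes passed an adjusted p of 0.05, which is 10.4% of the 10118 tested. Of these, 430 genes (4.25%) were higher in IR+NMN and 624 (6.17%) were lower. The counts of each gene list below are to be read beside these 2 shares. A change of at least 2-fold was reached by 398 of the called genes (3.93% of those tested), 202 higher and 196 lower. The test was limma on log2(TPM + 1) with Benjamini-Hochberg adjustment over all genes tested, and every fold change given here is on that scale, which understates the change of low genes. The median change of all genes was -0.14 in log2, and median-of-ratios scaling brought it to -0.01. The share of calls that were higher was 40.8% on TPM as deposited, 50.9% after quantile scaling and 53.4% after median-of-ratios scaling. The number of calls depended on single libraries: leaving out a Sham library gave 684 (Sham 1), 304 (Sham 2) or 464 (Sham 3) calls, leaving out IR 3 gave 685, and leaving out an IR+NMN library gave 378 (IR+NMN 1), 2195 (IR+NMN 2) or 279 (IR+NMN 3). Every one of the 1054 called genes had its 3 IR+NMN libraries wholly above or wholly below its 3 Sham libraries, as did 33.5% of all genes tested (1318 higher and 2076 lower in IR+NMN). A core of 247 genes, 132 higher and 115 lower, was called in all 9 fits that left out 1 library.

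**Figure D1:**
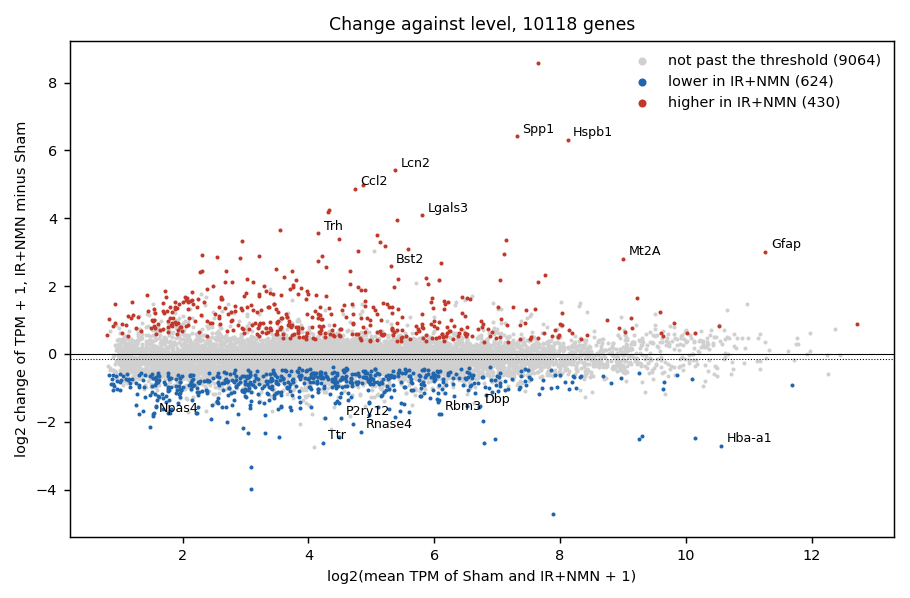
Log2 change of TPM + 1 (IR+NMN minus Sham) against log2 of the mean TPM of both groups + 1, 1 point per gene, red for the 430 higher and blue for the 624 lower genes; the dotted line is the median of -0.14. The largest called changes reach further upwards than downwards, and the outermost points in each direction are Gng13 and Rpl30, whose values rest on table rows that switch between groups.

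Libraries within the groups were not alike. IR+NMN 2 stood nearest to Sham, with a Spearman correlation across genes of 0.978 with Sham 1, against 0.926 for IR+NMN 1 and 0.953 for IR+NMN 3. Ribosomal protein genes took 5.81% to 7.29% of the TPM in Sham and 7.74% to 12.2% in IR+NMN. Hemoglobin genes summed to 4077 to 9332 TPM in Sham and 824 to 1010 TPM in IR+NMN. For both measures the groups did not overlap, and the two-sided exact permutation test gave 0.1, the smallest p that 3 against 3 libraries allow. Sham 3 held the 9332 TPM of hemoglobin and the highest levels of mural cell and fibroblast genes, and values without it are given for some of the calls that changed. With the ribosomal share as a covariate, 395 genes were called, and 24 of the 95 called genes named here lost their call: Bak1, Bcl2a1, Bid, Ccl2, Cd38, Cd44, Cirbp, Cox7b, H19, Hmox1, Hp, Htra4, Igf2, P2ry13, Ptgds, Slc4a4, Slc6a11, Socs3, Spp1, Tie1, Timp1, Tnfrsf1a, Tuba1c and Tubb2b.

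Phagocyte genes rose. Of 16 tested genes of lipid and debris clearance, 9 were higher and 2 lower, with a median change of 1.34 against -0.14 for all genes. Spp1, which encodes the secreted phosphoprotein osteopontin, was at 1.51, 1.01 and 0.551 TPM in Sham 1 to 3 and at 613, 24.8 and 308 TPM in IR+NMN 1 to 3. All 3 IR+NMN libraries were far above Sham, with IR+NMN 2 the lowest of them, and the change was 6.42 in log2 (SE 0.986, adjusted p 0.00675 by limma). That call was lost with the ribosomal share as a covariate (adjusted p 0.0873). Lgals3, the galactoside-binding lectin galectin-3, measured 2.97, 3.0 and 6.37 TPM in Sham and 184, 28.8 and 103 TPM in IR+NMN. The groups lay apart, with a log2 change of 4.09 (adjusted p 0.00507). Gpnmb, a transmembrane glycoprotein of lipid-laden phagocytes, went from between 3.71 and 6.18 TPM to between 30.2 and 62.8 TPM, a change of 3.03 (adjusted p 0.00384). The scavenger receptor gene Msr1 was at most 0.395 TPM in Sham and between 3.57 and 18.6 TPM in IR+NMN, a change of 3.33 (adjusted p 0.00573). Plin2, which coats lipid droplets, rose by 1.73 (adjusted p 0.00806).

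The 2 lower members of that list are genes of lipid sensing and transport. Trem2, a lipid receptor of microglia, stood at 16.0, 17.9 and 17.9 TPM in Sham and 9.88, 11.4 and 8.52 TPM in IR+NMN, a change of -0.74 (adjusted p 0.0171). Apoe, the main apolipoprotein of the brain, stood at 4291, 4241 and 4337 TPM in Sham and 2044, 2863 and 2015 TPM in IR+NMN, a change of -0.91 (adjusted p 0.0157). Every IR+NMN library lay below every Sham library for both genes. Neither call held without Sham 2 (adjusted p 0.0763 for Trem2 and 0.0637 for Apoe), Sham 3 (0.0574 and 0.0532), IR+NMN 1 (0.0551 and 0.0508) or IR+NMN 3 (0.0774 and 0.0710).

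Integrins, Fc receptors and NADPH oxidase subunits of phagocytes moved in the same direction. Of 19 such genes tested, 14 were higher and none was lower, with a median of 1.32. Itgam, the alpha chain of complement receptor 3 (CD11b), stood at 2.61, 3.89 and 2.78 TPM in Sham and 20.7, 17.8 and 26.2 TPM in IR+NMN. Its beta partner Itgb2 stood at 4.0, 5.30 and 4.86 TPM in Sham and 16.8, 11 and 17.8 TPM in IR+NMN. The groups lay apart for both chains, which rose by 2.46 (adjusted p 0.00444) and 1.48 (adjusted p 0.00567). Ncf4, a cytosolic subunit of the oxidase, rose by 2.82 (adjusted p 0.00289), and Fcgr3a, a low-affinity IgG receptor, rose by 2.28 (adjusted p 0.00497). Tyrobp, the adaptor that signals for TREM2 and related receptors, rose by 1.65 (adjusted p 0.0060). Cybb, the catalytic oxidase subunit, was not called: it measured 0.427, 1.08 and 2.07 TPM in Sham and 1.02, 0.666 and 0.855 TPM in IR+NMN (adjusted p 0.648), and the groups overlapped. The count of 14 was 7 without Sham 2, IR+NMN 1 or IR+NMN 3, and 8 without Sham 3.

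Genes of resting microglia were lower. Of 11 tested, 5 were lower and none was higher, with a median of -0.83. P2ry12, the ADP receptor that guides microglial processes, stood at 34.4, 33.3 and 36.4 TPM in Sham and 6.38, 13.1 and 7.48 TPM in IR+NMN. No library of either group crossed into the other's range, and the change was -1.90 (SE 0.263, adjusted p 0.00483). Siglec5, a sialic acid-binding lectin, fell from between 2.91 and 3.81 TPM to between 0.0928 and 0.732 TPM, a change of -1.73 (adjusted p 0.00421). P2ry13, another ADP receptor, changed by -1.77 (adjusted p 0.00995, and 0.0528 without IR+NMN 3). The pan-microglial gene Aif1 was at 38.7, 42.4 and 47.9 TPM in Sham and 75.0, 55.6 and 46.5 TPM in IR+NMN, with overlapping groups and no call (adjusted p 0.149). The list's count of 5 was 3 without Sham 2, Sham 3, IR+NMN 1 or IR+NMN 3. In bulk tissue, fewer cells of a type and less RNA per cell cannot be told apart.

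**Figure D2:**
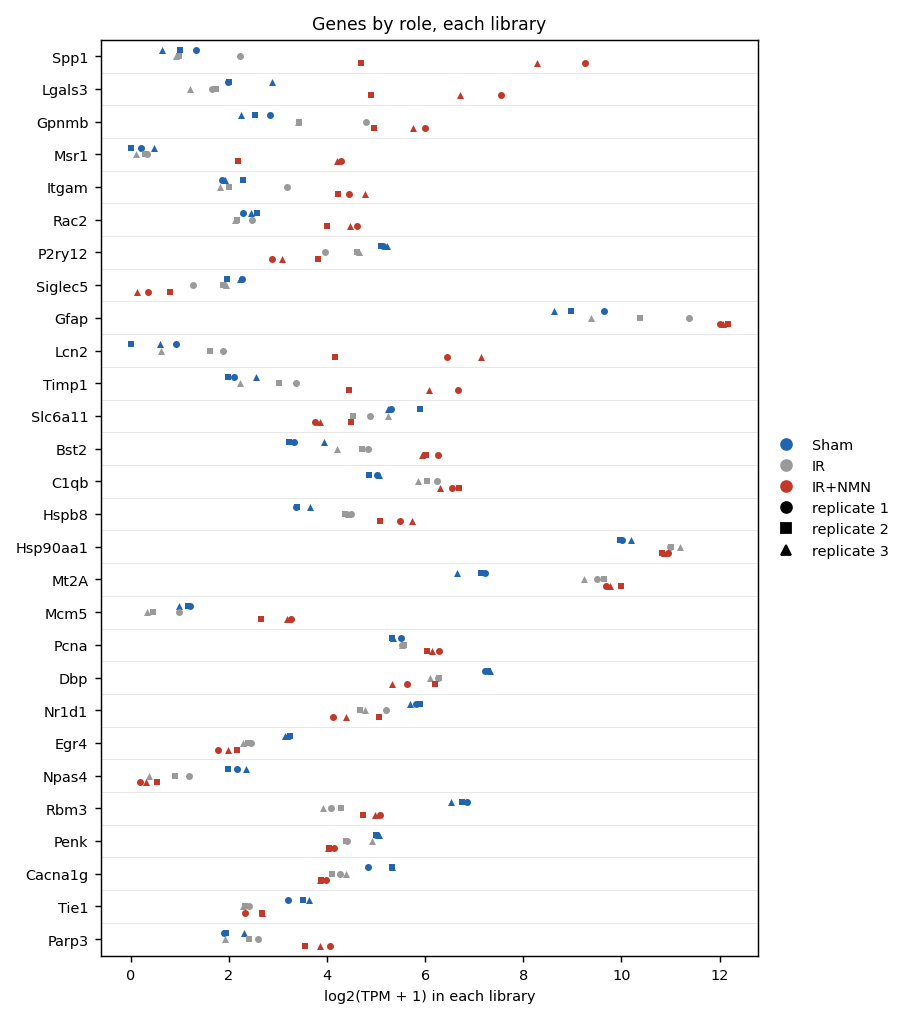
Log2(TPM + 1) of 28 genes in each library, ordered by role; blue is Sham, red is IR+NMN, grey is IR for scale, and the marker shape is the replicate number. All 28 are called genes, and every called gene has groups that lie apart. The choice of genes therefore fixed that all 3 red points lie on 1 side of all 3 blue points. For Msr1, Lcn2, Siglec5 and Npas4 the filter fixed it as well. Uncalled genes of the text such as Aif1, Cybb and Mt3, whose groups overlap, are not shown. IR+NMN 2 (square) is the red point nearest to Sham in many of the phagocyte genes.

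Of 24 chemokine, cytokine and inflammasome genes, 21 are in the table and 10 could be tested. Among these 10, 4 were higher and none was lower, with a median of 1.02. The 4 include Ccl2, which passed the filter only through IR+NMN, so its groups were bound to lie apart. Ccl2, which draws monocytes, was at 0.294 TPM in Sham 1 and listed at 0 in Sham 2 and Sham 3, and stood at 98.4, 5.34 and 50.2 TPM in IR+NMN. Its change was 4.87 (adjusted p 0.011, and 0.0583 without IR+NMN 3). Pycard, the inflammasome adaptor ASC, rose by 1.86 (adjusted p 0.00323), and Il18, a cytokine that the inflammasome matures, rose by 1.29 (adjusted p 0.00809).

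Complement and interferon-induced genes rose as well. Of 17 complement genes tested, 7 were higher and none was lower (median 0.38). C1qb, a chain of the recognition molecule C1q, measured 31.6, 27.7 and 32.2 TPM in Sham and 91.8, 102 and 77.5 TPM in IR+NMN. The groups were well apart and the change was 1.53 (SE 0.144, adjusted p 0.00108). Its partner chains C1qa and C1qc changed by 0.97 and 1.56 (adjusted p 0.00624 and 0.00201), and the protease gene C1s by 1.3 (adjusted p 0.0060). Without IR+NMN 3 the complement count was 4.

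Of 23 interferon-induced genes tested, 11 were higher and none was lower, with a median of 1.10. Bst2, the antiviral tether tetherin, was at 9.05, 8.34 and 14.3 TPM in Sham and 75.7, 64.1 and 60.3 TPM in IR+NMN. Ifi27 was at 72.2, 63.3 and 77.4 TPM in Sham and 437, 346 and 302 TPM in IR+NMN. These 2 genes were about as high in IR+NMN 2 as in the other IR+NMN libraries, and they rose by 2.58 (adjusted p 7.57e-04) and 2.32 (adjusted p 2.21e-04). The list as a whole was lowest in IR+NMN 2 of the IR+NMN libraries. Its median over members, measured from the Sham mean, was 1.55, 0.58 and 1.11 in IR+NMN 1 to 3. Irf7, a transcription factor of the interferon response, rose by 1.38 (adjusted p 0.00444), Oas1a, a sensor of double-stranded RNA, by 1.53 (adjusted p 0.00748), and the immunoproteasome subunit Psmb8 by 2.07 (adjusted p 0.00304). The count of 11 was 5 without IR+NMN 1 or IR+NMN 3 and 6 without Sham 2.

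Reactive astrocyte genes had the highest share of calls among the lists with at least 9 tested members: 16 of 20 were higher and none was lower, with a median of 1.49. Gfap, the intermediate filament protein of astrocytes, measured 801, 498 and 394 TPM in Sham and 4121, 4634 and 4315 TPM in IR+NMN. Sham varied more than IR+NMN, the groups lay far apart, and the change was 3.01 (SE 0.446, adjusted p 0.00596). Lcn2, the secreted iron-siderophore binder lipocalin-2, was at 0.881 and 0.503 TPM in Sham 1 and Sham 3 and listed at 0 in Sham 2, and stood at 86.6, 16.9 and 139 TPM in IR+NMN. Its change was 5.42 (adjusted p 0.00317). Timp1, an inhibitor of matrix metalloproteinases, went from between 2.94 and 4.87 TPM to between 20.8 and 100 TPM, a change of 3.51 (adjusted p 0.00596, and 0.0522 with the ribosomal covariate). Aspg, an asparaginase, rose by 1.38 (adjusted p 0.00596). Socs3, a target and inhibitor of STAT3 signalling, rose by 2.89 (adjusted p 0.0123), but the adjusted p was 0.0523 without Sham 2 and 0.0597 without IR+NMN 3. The count of 16 was 8 without Sham 2 or IR+NMN 3 and 10 without IR+NMN 1.

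Homeostatic astrocyte genes had a median of -0.74, yet of 17 tested only Slc4a4 and Slc6a11 were lower and Glul was higher. Slc6a11, the GABA transporter GAT-3, stood at 38.5, 58.3 and 37.0 TPM in Sham and 12.5, 21.3 and 13.5 TPM in IR+NMN, a change of -1.45 (adjusted p 0.0129). Glul, glutamine synthetase, stood at 809, 910 and 740 TPM in Sham and 1162, 1435 and 1192 TPM in IR+NMN, a change of 0.62 (adjusted p 0.0449). The groups were apart for both genes. The Slc6a11 call was lost without Sham 2 (adjusted p 0.0562) or IR+NMN 3 (0.0639), and the Glul call was lost without any of 7 libraries. The Slc4a4 call was lost without Sham 1, Sham 2, Sham 3, IR 3, IR+NMN 1 or IR+NMN 3. The number of lower members was 12 without IR+NMN 2, 1 without Sham 1, Sham 3, IR 3 or IR+NMN 1, and 0 without Sham 2 or IR+NMN 3. Hes5, a Notch target expressed in astrocytes and precursor cells, was outside this list and fell from 41.0, 38.9 and 43.2 TPM to 7.51, 13.8 and 7.24 TPM, a change of -2.05 (adjusted p 0.00304) that held without any single library.

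Heat shock chaperones rose: 11 of 20 tested genes were higher and none was lower, with a median of 0.55. Hspb1 (HSP27) measured 3.67, 3.89 and 8.72 TPM in Sham and 830, 221 and 600 TPM in IR+NMN. Hspb8 measured 9.24, 9.51 and 11.5 TPM in Sham and 44.0, 32.8 and 52.1 TPM in IR+NMN. Both genes were higher in every IR+NMN library, by 6.31 (SE 0.668, adjusted p 0.00219) and 1.97 (SE 0.172, adjusted p 6.91e-04). Hsp90aa1, the inducible form of the cytosolic HSP90, measured 1031, 1004 and 1165 TPM in Sham and 1980, 1828 and 1875 TPM in IR+NMN, a change of 0.83 (adjusted p 0.00583). Dnaja1, an HSP70 co-chaperone, changed by 0.63 (adjusted p 0.0110, and 0.0581 without Sham 2). Hspd1, the mitochondrial chaperonin HSP60, changed by 0.85 when its rows were summed (adjusted p 0.00593) but by -0.57 when only its highest row was used. Without Sham 2 the count was 5, without IR+NMN 3 it was 6, and without Sham 3 or IR+NMN 1 it was 7.

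The heat shock element core marked in the printed Hspb1 and Hspb8 promoters was common among chaperone genes whether they were called or not. GAANNTTC was found in 7 of the 9 called chaperone genes with a matched promoter and in 4 of the 7 matched ones that were not called. It was found in 8.59% of all 33469 promoters in the table and in 5.93% of tested genes with a matched promoter. TTCNNGAA, whose letters can overlap with the first core, was in 4 of the 9 and 4 of the 7, against 8.77% of all promoters and 7.32% of tested genes. The promoters of the called genes Hspd1 and Hspe1 overlap on opposite strands, so the same letters are counted for both. Both cores read the same on either strand. These are matches of letters and not measured binding.

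Metallothioneins bind zinc and copper, and 2 of their genes rose. Mt2A measured 148, 139 and 99.0 TPM in Sham and 818, 1013 and 868 TPM in IR+NMN. Mt1 measured 54.8, 67.2 and 101 TPM in Sham and 414, 215 and 346 TPM in IR+NMN. The groups lay apart, with changes of 2.81 (SE 0.182, adjusted p 2.10e-04) and 2.11 (SE 0.288, adjusted p 0.00444). The 7 copies of TGCNCNC in the printed Mt1 promoter and the 5 in Mt2A compare with at least 7 in 0.108% and at least 5 in 0.669% of all promoters; 49.6% hold at least 1. Mt3, the metallothionein known from brain, also has 5 copies, and it was not called: it measured 3120, 3034 and 3281 TPM in Sham and 4242, 4573 and 2909 TPM in IR+NMN, with overlapping groups and a change of 0.29 (adjusted p 0.343). Hmox1, which degrades heme, stood at 4.75, 4.68 and 5.13 TPM in Sham and 67.4, 17.7 and 118 TPM in IR+NMN, a change of 3.19 (adjusted p 0.00979, and 0.0764 with the ribosomal covariate). In the list of NRF2, metallothionein and antioxidant genes, 5 of 24 tested were higher and 1 was lower, with a median of 0.25; the higher count was 3 without Sham 2, Sham 3, IR+NMN 1 or IR+NMN 3. Among 19 unfolded protein response genes 3 were higher, among them Sdf2l1 (1.17, adjusted p 0.00507) and Manf (0.59, adjusted p 0.0118), both products of the endoplasmic reticulum; 2 were higher without Sham 2 or IR+NMN 3.

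Of 24 cell cycle genes tested, 8 were higher, 1 was lower and 15 were not called (median 0.27). Mcm5, a subunit of the replicative helicase, stood at 1.3, 1.23 and 0.976 TPM in Sham and 8.64, 5.29 and 8.06 TPM in IR+NMN. The sliding clamp Pcna stood at 44.3, 39.2 and 39.7 TPM in Sham and 76.7, 64.7 and 69.7 TPM in IR+NMN. The groups were apart, with changes of 1.92 (adjusted p 0.00270) and 0.76 (adjusted p 0.00483). Cdkn1a, which encodes the cyclin-dependent kinase inhibitor p21, rose by 1.61 (adjusted p 0.00364) from 6.39 to 6.73 TPM in Sham to 18.0 to 31.3 TPM in IR+NMN. The count of 8 was 5 without Sham 1, Sham 2 or Sham 3, 4 without IR+NMN 1 and 3 without IR+NMN 3.

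**Figure D3:**
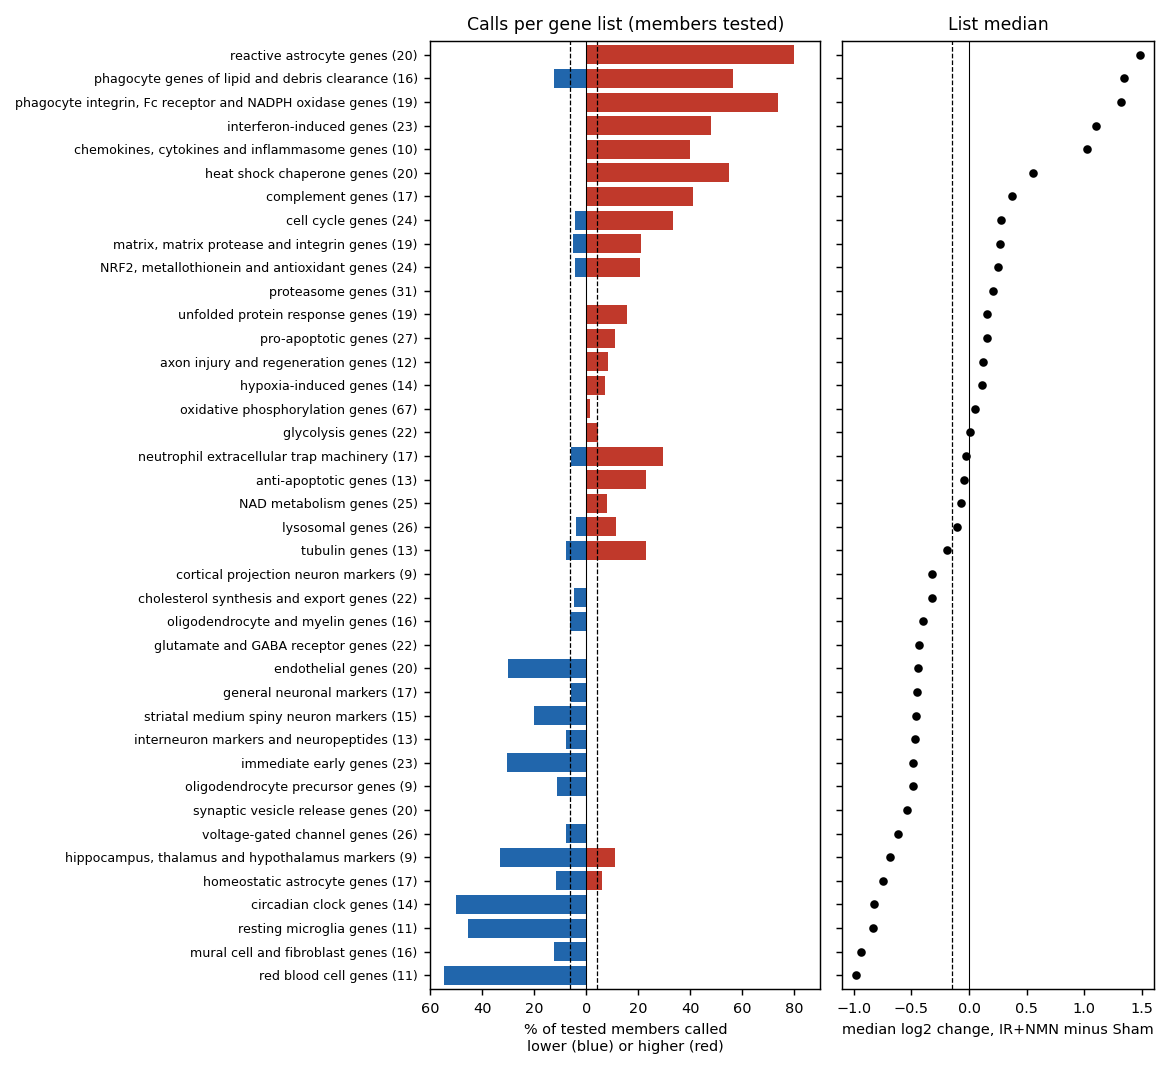
Left, the percentage of each list's tested members (number in brackets) called higher (red, to the right) or lower (blue, to the left), with dashed lines at 4.25% and 6.17% for all genes; right, the median log2 change of each list, with a dashed line at the all-gene median of -0.14. Reactive astrocyte, phagocyte, interferon, chemokine and chaperone lists lie at the top. Red blood cell, mural cell and fibroblast, resting microglia, clock and homeostatic astrocyte lists lie at the bottom.

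Activity-regulated and clock genes were lower. Of 23 immediate early genes tested, 7 were lower and none was higher, with a median of -0.48. Npas4, a transcription factor induced by neuronal calcium, stood at 3.46, 2.96 and 4.07 TPM in Sham and 0.132, 0.436 and 0.238 TPM in IR+NMN. Egr4 stood at 8.28, 8.41 and 7.85 TPM in Sham and 2.43, 3.50 and 2.96 TPM in IR+NMN. The changes of Npas4 and Egr4 were -1.82 (adjusted p 0.00296) and -1.22 (adjusted p 0.00270), and the groups of Egr4 did not overlap. Nr4a2, an orphan nuclear receptor, changed by -1.11 (adjusted p 0.00995), and Arc, which regulates glutamate receptors at the synapse, by -1.8 (adjusted p 0.0129, and 0.0585 without Sham 2). The count of 7 was 3 without Sham 2, 4 without Sham 3 or IR+NMN 3 and 12 without IR+NMN 2.

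Of 14 circadian clock genes tested, 7 were lower and none was higher, with a median of -0.82. Dbp, an output transcription factor of the clock, measured 149, 155 and 160 TPM in Sham and 48.6, 72.3 and 39.0 TPM in IR+NMN. Sham was tight and every IR+NMN library was lower, a change of -1.56 (SE 0.195, adjusted p 0.00304). Nr1d1, the repressor REV-ERB alpha, changed by -1.27 (adjusted p 0.0137) and lost its call without Sham 2 (0.0603) or IR+NMN 3 (0.0656). The time of day of collection is not stated in the labels used here. Leaving out Sham 2 or IR+NMN 3 left 1 of these calls; leaving out IR+NMN 1 left 2, Sham 3 left 3, and Sham 1, IR 2 or IR 3 left 4.

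Both cold-inducible RNA-binding protein genes were lower. Rbm3 stood at 114, 106 and 91.0 TPM in Sham and 33.0, 25.5 and 30.6 TPM in IR+NMN, with the groups far apart and a change of -1.77 (SE 0.150, adjusted p 6.61e-04). Cirbp changed by -0.93 (adjusted p 0.0105), and its adjusted p was 0.0555 without IR+NMN 3. Body temperature is not stated in the labels used here.

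Neuronal genes were mostly lower in their medians without passing the test. Markers of the labelled tissue were present: Rbfox3, the neuronal nuclear protein NeuN, was at 97.8 to 169 TPM in Sham and 61.8 to 140 TPM in IR+NMN, with overlapping groups and no call (adjusted p 0.300). Of 17 general neuronal markers, 1 was lower (median -0.46), a share near the 6.17% of all genes; the count was 0 without Sham 2, Sham 3 or IR+NMN 3, 3 without IR 1 and 2 without IR+NMN 2. Of 20 synaptic vesicle genes and 22 glutamate and GABA receptor genes, none was called (medians -0.54 and -0.43), and without IR+NMN 2 the lower counts were 3 and 5. Cacna1g, a T-type calcium channel subunit, was 1 of 2 lower genes among 26 voltage-gated channel genes, at 27.5, 38.9 and 38.8 TPM in Sham and 14.7, 13.7 and 13.4 TPM in IR+NMN. Its change was -1.26 (adjusted p 0.00304). The channel list's 2 of 26 lower genes stand beside 6.17% of all genes, and without IR+NMN 2 the list had 9 lower genes. Penk, the enkephalin precursor of striatal medium spiny neurons, was at 31.1, 30.8 and 32.1 TPM in Sham and 16.7, 15.4 and 15.2 TPM in IR+NMN. The groups of Penk were tight and apart, with a change of -0.95 (adjusted p 0.00806). It was 1 of 3 lower genes among 15 striatal markers, a count that was 6 without IR+NMN 2, 2 without IR+NMN 1 and 1 without IR+NMN 3.

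Of 13 tubulin genes tested, 3 were higher (Tuba1c, Tubb2b and Tubb6), 1 was lower and 9 were not called, with a median of -0.19; 2 were higher without Sham 2 or IR+NMN 3, none was lower without Sham 2, Sham 3 or IR+NMN 3, and 2 were lower without IR+NMN 2. Tubb6, a beta tubulin, measured 3.33, 2.67 and 4.68 TPM in Sham and 105, 28.3 and 104 TPM in IR+NMN, while Tubb3, the neuronal beta tubulin, measured 362, 378 and 438 TPM in Sham and 276, 244 and 230 TPM in IR+NMN. The groups lay apart in opposite directions, with changes of 3.94 (adjusted p 0.00304) and -0.65 (adjusted p 0.0267). The Tubb3 call was lost without Sham 2 (0.0880), Sham 3 (0.0875) or IR+NMN 3 (0.109), and under median-of-ratios scaling (0.126). Tubulin genes share long stretches of sequence, so reads could have been divided between them in the authors' quantification. Mbp, a myelin protein gene, ranged from 3419 to 7629 TPM in Sham and from 1963 to 5108 TPM in IR+NMN, and was not called (adjusted p 0.402).

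Blood and vessel genes were lower. Of 11 red blood cell genes tested, 6 were lower and none was higher, with a median of -0.98, and between 5 and 7 were lower when any 1 library was left out. Hba-a1, an alpha globin, was at 1906, 1909 and 4089 TPM in Sham and 319, 438 and 384 TPM in IR+NMN. Alas2, the heme synthesis enzyme of red cell precursors, was at 8.57, 10.3 and 19.4 TPM in Sham and 1.21, 2.39 and 1.33 TPM in IR+NMN. Sham 3 was the highest library for both, but Sham 1 and Sham 2 also lay above all IR+NMN libraries, and the changes were -2.70 (adjusted p 0.00219) and -2.33 (adjusted p 0.00364). Globin copies are nearly identical, so their separate values are uncertain. Of 20 endothelial genes, 6 were lower, with a median of -0.44. Tie1, an endothelial receptor kinase, was at 8.19, 10.4 and 11.3 TPM in Sham and 3.98, 5.42 and 5.37 TPM in IR+NMN, a change of -0.89 (adjusted p 0.0125, and 0.0581 without Sham 2). The endothelial count was 0 without Sham 2, 1 without Sham 3 or IR+NMN 3, 2 without IR+NMN 1, and 4 without IR 2 or IR 3. The amount of blood left in the tissue was not measured, and its part in these values was not tested.

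Of 5 choroid plexus and ependymal markers tested, 1 was lower (Ttr), and of 16 mural cell and fibroblast genes 2 were lower (Igf2 and Ptgds); neither list had a higher gene, and the medians were -0.77 and -0.94. The mural and fibroblast count was 0 without IR+NMN 1, IR+NMN 3, Sham 2 or either of IR 2 and IR 3, 1 without Sham 3 and 5 without IR+NMN 2, and the choroid plexus count was 2 without Sham 3. Ttr, the choroid plexus carrier of thyroid hormone, was at 38.4, 23.6 and 32.0 TPM in Sham and 3.56, 3.37 and 5.85 TPM in IR+NMN. Each group was compact, and the change was -2.62 (SE 0.220, adjusted p 6.61e-04). Ptgds, a prostaglandin synthase, was at 428, 407 and 2398 TPM in Sham and 76.0, 237 and 122 TPM in IR+NMN, and Igf2 at 13.5, 14.8 and 88.3 TPM in Sham and 3.20, 5.99 and 3.27 TPM in IR+NMN. Both were far higher in Sham 3 than elsewhere, where mural cell and fibroblast genes had a median 1.10 above the Sham mean. Without Sham 3 the adjusted p for Ptgds was 0.0506, without Sham 2 it was 0.0663 for both genes, without IR+NMN 1 it was 0.132 for Ptgds and 0.116 for Igf2, and without IR+NMN 3 it was 0.137 for both. The Ptgds call was also lost without IR 1 (0.0530), IR 2 (0.0667) or IR 3 (0.0674), and the Igf2 call without IR 2 (0.0630) or IR 3 (0.0600). Rnase4, a secreted ribonuclease, did not share that pattern: it was at 46.6, 47.9 and 43.9 TPM in Sham and 10, 7.22 and 8.85 TPM in IR+NMN, a change of -2.29 (adjusted p 2.82e-04) that held without any single library.

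**Figure D4:**
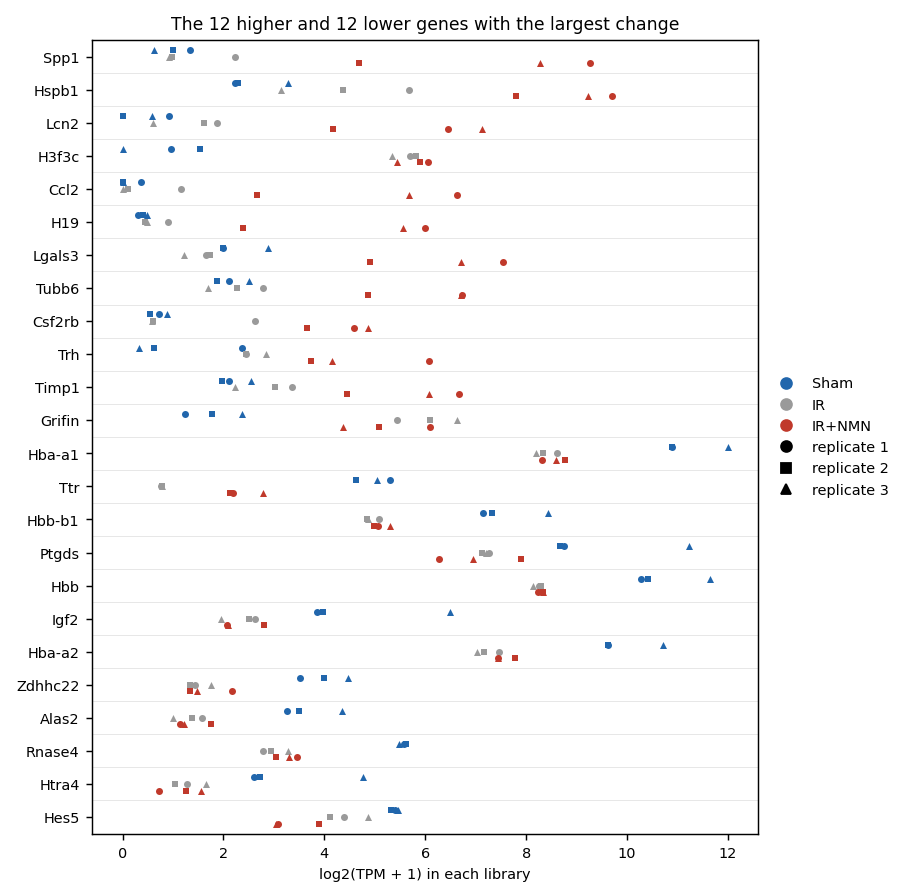
Log2(TPM + 1) in each library for the 12 higher and 12 lower genes with the largest fitted change that met the naming rule; blue is Sham, red is IR+NMN, grey is IR for scale. That rule required groups that lie apart, so red points lie wholly to the right of blue in the upper 12 genes and wholly to the left in the lower 12. Sham 3 (blue triangle) is the outermost blue point for the globins, Ptgds, Igf2 and Htra4.

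Other genes with the largest changes fall outside these groups. Csf2rb, the shared receptor chain of GM-CSF, IL-3 and IL-5, was at 0.660, 0.461 and 0.842 TPM in Sham and 22.9, 11.6 and 28.0 TPM in IR+NMN, a change of 3.65 (adjusted p 0.00573). Grifin, a galectin-related gene known from the lens, was at 1.38, 2.42 and 4.18 TPM in Sham and 67.6, 33.1 and 19.7 TPM in IR+NMN, a change of 3.39 (adjusted p 0.00483). Both calls held without any single library. H19, an imprinted noncoding RNA, was at 0.236, 0.330 and 0.398 TPM in Sham and 62.9, 4.23 and 46.0 TPM in IR+NMN, a change of 4.25 (adjusted p 0.0130). IR+NMN 2 was the lowest of its group, and the call was lost without Sham 2 (adjusted p 0.0552) or IR+NMN 3 (0.0630). Meg3, another imprinted noncoding RNA, moved the other way, from 218, 284 and 344 TPM to 110, 131 and 122 TPM, a change of -1.19 (adjusted p 0.00675).

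The study's title names apoptosis and neutrophil extracellular traps. Bax, which permeabilises mitochondria, was at 56.2, 50 and 47.9 TPM in Sham and 69.7, 64.0 and 61.1 TPM in IR+NMN, a change of 0.33. The groups of Bax did not overlap, which 1318 of the 10118 genes share in that direction, and the adjusted p was 0.105. Its antagonist Bcl2 was at 2.16, 3.35 and 2.55 TPM in Sham and 1.36, 1.69 and 1.95 TPM in IR+NMN, a change of -0.46 (adjusted p 0.188). The groups of Bcl2 were likewise apart without a call, and 2076 genes were apart in that direction. Bcl2l1, an anti-apoptotic relative of Bcl2, had overlapping groups and a change of -0.08 (adjusted p 0.466). Of 27 pro-apoptotic genes tested 3 were higher, Tnfrsf1a, Bid and Bak1, and of 13 anti-apoptotic genes 3 were higher, Mcl1, Bcl2a1 and Bag3. The share of all genes that were higher was 4.25%. None of the 3 pro-apoptotic calls held without Sham 1, Sham 2, Sham 3, IR 2, IR+NMN 1 or IR+NMN 3, and none of the 3 anti-apoptotic calls without Sham 1, Sham 2, Sham 3 or IR+NMN 3.

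Padi4, the enzyme that citrullinates histones when traps form, did not reach the filter: its highest value in these 6 libraries was 0.0396 TPM. Hmgb1, a nuclear protein released from damaged cells, was at 130 to 135 TPM in Sham and 114 to 133 TPM in IR+NMN (adjusted p 0.462). Of 17 tested genes of the trap machinery, 5 were higher and 1 lower with a median of -0.02, and the 5 higher were phagocyte oxidase and integrin genes already counted above. The higher count was 3 and the lower count 0 without Sham 2, IR+NMN 1 or IR+NMN 3, and the lower count was 3 without IR+NMN 2. Of 15 neutrophil markers, 7 are in the table and 4 could be tested, and Lcn2 was higher and Hp, haptoglobin, lower (-1.04, adjusted p 0.0125, and 0.0529 without Sham 2 or 0.0606 without IR+NMN 3). The summed level of the neutrophil markers was 8.45 to 11.8 TPM in Sham and 24.3 to 149 TPM in IR+NMN, most of it Lcn2, which reactive astrocytes also make.

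Of 25 NAD metabolism genes tested, 2 were higher and none was lower, against 4.25% and 6.17% of all genes, with a median of -0.07. The higher count was 1 without Sham 1, Sham 3, IR+NMN 1 or IR+NMN 3; the lower count was 4 without IR+NMN 2 and 1 without IR 1. Parp3, a DNA damage-activated ADP-ribosyltransferase, was at 2.75, 2.82 and 3.97 TPM in Sham and 15.7, 10.8 and 13.6 TPM in IR+NMN. The groups were apart, the change was 1.77 (SE 0.217, adjusted p 0.0030), and the call held without any single library. Cd38, an NAD+ hydrolase, changed by 1.19 (adjusted p 0.0209) and was not called without Sham 1 (0.0534), Sham 3 (0.0669), IR+NMN 1 (0.0736) or IR+NMN 3 (0.0889). Nampt, which makes NMN from nicotinamide, was at 31.0, 25.8 and 23.5 TPM in Sham and 20.8, 29.4 and 26.3 TPM in IR+NMN, with overlapping groups (adjusted p 0.695); its highest row taken alone changed by -0.92 (adjusted p 0.0443). Nmrk1, which makes NMN from nicotinamide riboside, and Parp1, the main consumer of NAD+ after DNA damage, were not called either (adjusted p 0.117 and 0.556). Among energy genes, 1 of 67 oxidative phosphorylation genes (Cox7b) and 1 of 22 glycolysis genes (Slc16a3, a lactate exporter) were higher, with medians of 0.05 and 0.01. Of all genes, 4.25% were higher, so neither list stood out. The Slc16a3 change of 1.68 (adjusted p 0.00664) held without any single library, and the Cox7b call was lost without Sham 1 (0.0800), Sham 2 (0.120), IR+NMN 1 (0.0822) or IR+NMN 3 (0.0617).

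**Figure D5:**
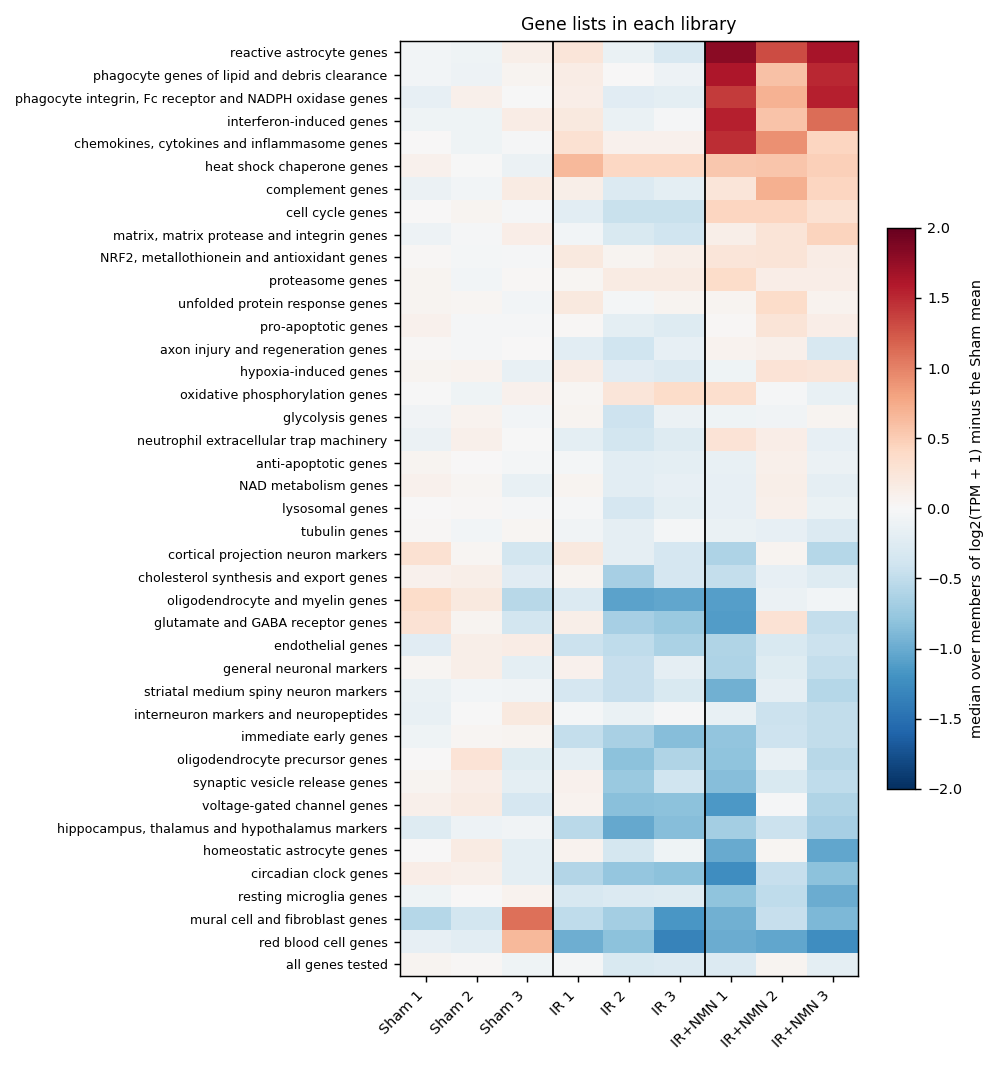
Each cell is the median, over a list's tested members, of log2(TPM + 1) minus the mean of the 3 Sham libraries, for 40 lists and all genes in the 9 libraries. The reactive astrocyte row reads 1.8, 1.3 and 1.65 in IR+NMN 1 to 3, and the lipid and debris row 1.62, 0.59 and 1.5. The voltage-gated channel row reads -1.14, -0.03 and -0.60. The middle library is thus the palest of the IR+NMN libraries in these rows.

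Some changes are uncertain because of how the table divides genes into rows. In 59 tested genes, rows that hold at least 10% of the gene's TPM in its higher group were at most 0.1 TPM in every library of 1 group and at least 1 TPM in every library of the other. Gng13 is listed at 0 in all Sham libraries and at 547, 235 and 422 TPM in IR+NMN. Rpl30, a ribosomal protein gene, went from 425, 411 and 525 TPM to 22.1, 12.3 and 15.6 TPM, and Ndufa10l1 from between 12.6 and 16.6 TPM to at most 0.0366 TPM. Serpina3n, a protease inhibitor of reactive astrocytes, and S100a10, an annexin partner, rose by 4.19 and 2.94 but hold such rows too. The list counts above include such genes: Serpina3n and S100a10 among the higher astrocyte genes, Fabp4 among the higher lipid and debris genes, and Cry2 among the lower clock genes. Leaving these rows out before summing gave 1066 calls in place of 1054.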

How the data were processed

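The deposited table gives TPM, a length-normalised abundance, for 131003 rows in 9 libraries, as the authors computed them. STAR, Cufflinks and the build hg38 are named in the submitters' processing notes with no role or version; hg38 is a human build, and the rat build and annotation behind the table are not stated there. RNA with a RIN of at least 5.8 was used, per the labels' protocols. Each library sums to 1000000 TPM, so a rise in some genes lowers the rest.

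Here, the 27683 rows with a gene symbol were summed by symbol, and rows with a blank (62861) or dash (40459) symbol were dropped; they hold 21.3% to 27.2% of the TPM of the Sham and IR+NMN libraries. Genes with at least 1 TPM in 3 or more of the 6 libraries were kept. limma 3.58.1 (R 4.3.3) was fitted to log2(TPM + 1) in all 9 libraries, with a mean per group, an intensity trend and robust moderation. The contrast was IR+NMN minus Sham, with Benjamini-Hochberg adjustment and a threshold of 0.05. The method was also run on simulated data with independent noise for each gene. Those data lack shifts shared by the genes of a library, so they do not show how reliable the calls here are. Libraries were also compared by exact permutation tests. SE is the moderated standard error of a log2 change.

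The comparison and the gene lists were chosen with earlier results of these data known, and no set test was run. Genes were named by rule: up to 12 per direction with the largest change, groups apart and a mean of at least 5 TPM, up to 5 members with the smallest p per list, the genes of the title, and 5 called genes with switching rows. Apoe, Dnaja1, Mt3, Plin2, Socs3, Trem2 and Tyrobp lie outside that rule and were chosen after their values were seen.

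Alternatives covered the pseudocount, filter, scaling, libraries fitted, moderation, row choice, ribosomal share, replicate number and each library in turn. Promoters came from RefSeq (GRCr8). Some genes of interest to the study are not reported here.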

Additional observations from a re-analysis of the deposited data

Results flagged for a closer look

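Rows of the table without a gene symbol, which no comparison above uses, were searched for rows that switch between the groups. The search itself fixed the gap between Sham and IR+NMN in the rows it found. Of the rows without a symbol, 14601 were above 0 TPM in any of the 6 libraries. Of these, 54 rows were at most 0.1 TPM in every Sham library and at least 1 TPM in every IR+NMN library. Among the 27683 rows with a symbol, 116 switched in 1 direction or the other. Their sum was at most 0.00746 TPM in Sham and 2077 to 3780 TPM in IR+NMN, and 1432 to 1942 TPM in IR. In the other direction 12 rows summed to 105 to 185 TPM in Sham and at most 5.45e-04 TPM in IR+NMN. The genes behind these rows are not named in the table. What part such rows play in the sums of named genes is given above only for rows with a symbol.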

How the results depend on the processing

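The number of genes called between IR+NMN and Sham became 617 when only these 6 libraries were fitted, 395 with the ribosomal share as a covariate and 517 with the replicate block. It ranged from 279 to 2195 when 1 library was left out, and was 467, 465 and 27 without replicate 1, 2 or 3 of every group. The number of genes called higher in IR+NMN was 722 after quantile scaling, 692 after median-of-ratios scaling, 265 with 6 libraries, 203 with the ribosomal covariate, 260 with the replicate block, 150 to 579 without 1 library, and 199, 199 and 14 without a replicate of every group. The number of genes called lower in IR+NMN was 352 with 6 libraries, 192 with the ribosomal covariate, 257 with the replicate block, 129 to 1616 without 1 library, and 268, 266 and 13 without a replicate of every group. The number of genes called and changed at least 2-fold was 197 with a pseudocount of 5, 236 with the ribosomal covariate, 199 to 691 without 1 library and 27 without replicate 3 of every group. With the ribosomal covariate, the median log2 change of all genes came to 0.028. The cause of these shifts was not tested.

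Same-numbered libraries of Sham and IR+NMN deviated from their group means with correlations of -0.51, 0.14 and -0.06. For Sham and IR the correlations were 0.40, -0.33 and 0.49, and for IR and IR+NMN -0.57, -0.19 and -0.16. With 3 libraries per group, these values cannot decide whether replicate numbers mark a pairing or a shared batch. Calls made both in the main test and with the replicate block numbered 508.

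Of the 1054 called genes, 9 had a change of the other sign with the highest row per gene and 2 with switching rows left out; none did under the other settings. Named genes that changed sign were Hspd1 (-0.57) and Npc2 (0.046) with the highest row, Rbfox3 (0.054) and Mbp (0.37) with the ribosomal covariate, and Mbp (0.099) without replicate 1 of every group. Without 1 library Cybb ranged from -0.46 to 0.096 and Nampt from -0.18 to 0.062; without a replicate of every group Cybb reached 0.090 and Nampt 0.17. Under quantile scaling Bcl2l1 was at 0.042, Parp1 at 0.038, Nampt at 0.077 and Hmgb1 at 0.0028. Under median-of-ratios scaling they were at 0.067, 0.062, 0.069 and 0.066. With the highest row Parp1 was at 0.058 and Hmgb1 at 0.068. With the ribosomal covariate Parp1 was at 0.077 and Nampt at 0.23. Of 95 called genes named in the text, 66 were called in all 9 fits without 1 library, and 24 lost their call with the ribosomal covariate, 13 with the replicate block and 8 with 6 libraries (Bak1, Bcl2a1, Bid, Glul, Htra4, Igf2, Ptgds and Slc4a4). Depth is unknown, so counting error cannot be given for low genes.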

Other observations

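Matrix and lysosomal genes were mixed. Of 19 matrix, matrix protease and integrin genes tested, 4 were higher and 1 was lower, with a median of 0.27; 1 was higher without Sham 2 or IR+NMN 1, 2 without IR+NMN 3 and 7 without IR+NMN 2. Cd44, a hyaluronan receptor, stood at 6.91, 3.67 and 9.13 TPM in Sham and 42.4, 20.7 and 63.4 TPM in IR+NMN, a change of 2.45 (adjusted p 0.0172 by limma, 0.0749 without Sham 2, 0.0574 without IR+NMN 1 and 0.0750 without IR+NMN 3). Of 26 lysosomal genes, 3 were higher and 1 was lower; 1 was higher without Sham 1, Sham 2, IR+NMN 1 or IR+NMN 3, and 5 were higher and 5 lower without IR+NMN 2. Ctsz, a lysosomal cathepsin, measured 22.1, 20.2 and 23.7 TPM in Sham and 106, 78.0 and 102 TPM in IR+NMN. Its groups lay far apart, with a change of 2.06 (adjusted p 5.02e-04) that held without any single library.

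Cd4, which rat macrophages as well as T cells carry, fell from 3.28, 3.81 and 3.83 TPM to 0.941, 1.23 and 0.788 TPM, a change of -1.23 (adjusted p 0.00507) that held without any single library. All 31 proteasome genes tested stayed uncalled, and their median was 0.21, against -0.14 for all genes. Measured from the Sham mean, the list median was 0.37, 0.13 and 0.13 in IR+NMN 1 to 3. For all genes it was -0.27, 0.05 and -0.19.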
